A study of Mus musculus with 64 samples.

Results

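The genes described here are 10 effectors of neuronal activity that act at the synapse or are secreted from neurons: Bdnf, Vgf, Scg2, Inhba, Pcsk1, Nptx2, Arc, Homer1, Ptgs2 and Rgs2. They were chosen by symbol, with no threshold on a measured value, and all 10 were found by Ensembl ID among the 18432 genes of the expression table. The choice was made with earlier results of these data known. Counts of members beside shares of all genes are therefore descriptions and not tests of the list. The table covers 64 RNA-seq libraries of mouse brain. Frontal cortex and hippocampus were dissected from heterozygous Cyfip2 Arg87Cys knock-in (KI) mice and from wild-type (WT) littermates, all on the C57BL/6N strain. The postnatal week (PWK) of collection was 1, 7, 14 or 28. Each of the 16 groups of genotype, region and age held 4 libraries, which the labels number as replicates without naming the mouse, so that p-values measure the spread between these libraries. The knock-in places a single amino acid change in the endogenous Cyfip2 gene, so that the level of Cyfip2 RNA does not check the genotype. The study used these mice as a model of West syndrome and followed them through the weeks in which recurrent seizures appear, and the sample labels do not state when a mouse last had a seizure before its brain was collected.

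Activity-induced effector genes are switched on when calcium enters a firing neuron. The same response includes transcription factors such as Fos, Npas4 and the Egr family. The products of the effector genes change how strongly a neuron is driven. Some are released to act on neighbouring cells, some remodel the postsynaptic membrane, and some damp the signalling that induced them. In cortex and hippocampus, many of them rise sharply after a seizure and also follow ordinary experience, so that their level can differ between animals of one group.

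Values are the normalized counts of the deposited table, which are estimated gene counts scaled for library size and transcript length. The library totals lay between 29225576 and 32601227 normalized counts, and each library listed between 61 and 248 genes at 0. None of the 10 genes was at 0 in any library. Depth before scaling is not given, so precision is judged from the spread of the 4 libraries of a group. A gene value sums all transcripts of that gene, so the short activity-induced Homer1 form cannot be told apart from the long scaffold form, nor one Bdnf promoter from another, and exons of Bdnf overlap an annotated gene on the other strand. Fold changes are differences of log2(value + 1), given with their standard error (SE). A gene is called when its limma p, adjusted over all genes of that comparison, is under 0.05. In each region, the regional markers were the higher ones: the summed level of 5 hippocampal and dentate gyrus markers lay between 22954 and 25937 in WT hippocampus at PWK 28 and between 6134 and 6902 in WT cortex. The summed level of 5 cortical markers lay between 13756 and 14005 in that cortex and between 4026 and 4424 in that hippocampus. KI cortex of the same age held between 7750 and 11234 for the same 5 cortical markers, below all WT libraries.

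Much activity-induced transcription runs through the cyclic AMP response element (CRE), the DNA site of the factor CREB, so the promoters of the 10 genes were searched for it. RefSeq on GRCm38.p6 gave 14 promoters for 7 of the genes, and those of Arc, Nptx2 and Vgf were not analysed here. The full element TGACGTCA stood within 250 bases upstream of the start in 508 of 32851 mouse promoters, or 1.55%, and in those of Pcsk1 and Scg2 among the members. Its core TGACG, read on both strands and contained in the full element, stood in 17.8% of all promoters and in 5 of the 14 promoters of the members, 1 each for Bdnf, Homer1, Pcsk1, Rgs2 and Scg2. The stretches below show how the sites are spaced in 4 of these genes, 5′ to 3′ on the gene's strand, with full and core sites in capitals. Annotated exon bases at their ends were left out, and for Scg2, where the site lies in a first exon of the GENCODE annotation, 30 bases around it are shown.
Pcsk1, plus strand, chr13:75089607-75089825: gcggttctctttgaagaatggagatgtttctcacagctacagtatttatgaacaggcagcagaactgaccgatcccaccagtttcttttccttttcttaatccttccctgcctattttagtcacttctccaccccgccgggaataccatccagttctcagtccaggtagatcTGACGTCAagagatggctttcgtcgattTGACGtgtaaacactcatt
Scg2, minus strand, chr1:79440076-79440105: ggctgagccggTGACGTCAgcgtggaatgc
Homer1, plus strand, chr13:93303507-93303756: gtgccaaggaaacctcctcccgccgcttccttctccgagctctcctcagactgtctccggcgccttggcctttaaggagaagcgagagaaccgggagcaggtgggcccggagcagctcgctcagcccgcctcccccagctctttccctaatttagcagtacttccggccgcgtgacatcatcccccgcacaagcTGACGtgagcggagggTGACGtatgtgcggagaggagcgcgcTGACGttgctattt
Bdnf, plus strand, chr2:109692186-109692435: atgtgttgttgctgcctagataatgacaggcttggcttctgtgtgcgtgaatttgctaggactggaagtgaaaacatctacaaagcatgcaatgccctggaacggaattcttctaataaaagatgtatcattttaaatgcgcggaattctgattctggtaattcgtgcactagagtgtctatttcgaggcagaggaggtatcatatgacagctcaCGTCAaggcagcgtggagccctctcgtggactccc
The Pcsk1 window held a full element and a separate core site downstream of it, the Homer1 window held 3 core sites close to its end, and this Bdnf window held 1. The Homer1 and Bdnf windows lie inside the annotated gene, outside its exons and upstream of an internal start. A match describes the letters only and does not show that a factor binds there.

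In WT mice the 10 genes differed widely in level, and 9 of them rose in cortex between PWK 14 and PWK 28. Compared per length of exon at PWK 28 in cortex, Arc had 3761 normalized counts per kb, followed by Scg2 with 2799 and Vgf with 1774. At the low end stood Ptgs2 with 222, Bdnf with 199.9 and Inhba with 162 normalized counts per kb. From PWK 1 to PWK 7 in cortex, Bdnf, Arc, Nptx2, Pcsk1, Scg2 and Ptgs2 rose and Inhba fell, which made 7 of 10 called beside 65.5% of all genes. Ptgs2, the inducible cyclooxygenase, ranged from 58.1 to 95.5 normalized counts at PWK 1 and from 280.4 to 357 at PWK 7, with a log2 difference of 2.00 ± 0.14 (SE). From PWK 7 to 14 in cortex, Arc (1.87) and Homer1 (0.42) rose, 2 of 10 called beside 5.31% of all genes, although the Homer1 call was lost without WT replicate 2 or 4 of PWK 7 or WT replicate 1 or 2 of PWK 14 (adjusted p of up to 0.0763), and with all 64 libraries in 1 fit. The Scg2 rise between PWK 1 and 7 was lost as a call without any 1 of WT replicates 2, 3 and 4 of either age (adjusted p of up to 0.109). From PWK 14 to 28 in cortex 9 of the 10 genes rose, beside 15.3% of all genes called and 6.79% called higher. The log2 differences went from 0.50 for Vgf to 1.53 for Inhba, and Rgs2 was the exception with 0.23 ± 0.13 (adjusted p = 0.251). The labels give no preparation dates, so that age and preparation cannot be told apart in comparisons between weeks, and neighbouring week contrasts share libraries.

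The WT hippocampus followed another course. From PWK 1 to 7, Bdnf, Arc and Ptgs2 rose and Nptx2 fell, 4 of 10 called beside 62.2% of all genes. From PWK 7 to 14, Bdnf (-0.56), Nptx2 (-0.60), Scg2 (-0.27) and Ptgs2 (-0.49) fell on the log2 scale, 4 of 10 called beside 5.57% of all genes, and none of these 4 calls held with all 64 libraries in 1 fit. From PWK 14 to 28, 7 genes rose, beside 11.6% of all genes called, with log2 differences between 0.23 for Homer1 and 1.20 for Inhba. With all 64 libraries in 1 fit Inhba and Pcsk1 alone were called in that step. The spread in that fit is drawn from the KI groups too. The calls of Bdnf and Arc in that last step were each lost in 5 of the 8 fits that leave out a library, WT replicates 1 and 2 of PWK 14 and 2 and 4 of PWK 28 among them for both (adjusted p of up to 0.0589 and 0.106). The Nptx2 fall between PWK 1 and 7 was lost without WT replicate 3 of PWK 1 or WT replicate 1 or 3 of PWK 7 (up to 0.070). At PWK 14 all 10 genes differed between the regions of WT mice, beside 34.6% of all genes: Bdnf (0.68), Scg2 (0.30) and Ptgs2 (0.59) were higher in hippocampus and the other 7 higher in cortex, with Pcsk1 (-1.42) the furthest apart. Of these, the Arc call was lost without any 1 of cortical replicates 2, 3 and 4 or hippocampal replicates 1 and 2, and the Vgf call without replicate 1 of either region (adjusted p of up to 0.137 and 0.0546). With all 64 libraries in 1 fit 4 of the 10 calls at PWK 14 held, those of Bdnf, Nptx2, Homer1 and Pcsk1. At PWK 28, where 37.8% of all genes were called, 7 members were higher in cortex, and Bdnf (0.03), Scg2 (-0.37) and Ptgs2 (-0.24) did not pass the test. At PWK 1 the call was made for 6 members beside 34.7% of all genes, and at PWK 7 for 9 beside 40.8%, with 3 at each of these ages when all 64 libraries were in 1 fit.

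At PWK 1 and PWK 7 none of the 10 genes passed the limma test between KI and WT mice in either region. Few genes of any kind did, with 0.00546% and 0.00545% of all genes called in cortex and 0.0109% and 0.0218% in hippocampus at the 2 ages. The log2 differences of the members at PWK 1 lay between -0.20 for Rgs2 and 0.16 for Nptx2 in cortex, and between -0.12 for Pcsk1 and 0.24 for Inhba in hippocampus. Unadjusted, p was under 0.05 for 5.27% and 8.05% of all genes in cortex at PWK 1 and 7, and for 5.46% and 6.22% in hippocampus. The widest difference of these weeks was that of Bdnf in hippocampus at PWK 7. Its KI libraries held 988, 1082, 1063 and 1045 normalized counts and its WT libraries 1401, 1597, 1304 and 1469. All 4 KI libraries were below all 4 WT libraries, as were those of Scg2, beside 2.25% of all genes with all KI libraries lower, but with a log2 difference of -0.46 ± 0.07 (SE) the adjusted p was 0.0827. Without WT replicate 3 alone it was 0.0246.

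At PWK 14 and PWK 28 between 3 and 7 of the 10 genes were called in each comparison of KI with WT. In hippocampus at PWK 14, 7 of 10 were called, all higher in KI, beside 15.6% of all genes called and 7.64% called higher. At PWK 28 the hippocampus had 6 called higher and Pcsk1 lower, beside 15.8% of all genes, 8.92% higher and 6.91% lower. The cortex at PWK 14 had 2 called higher and 1 lower, beside 5.18% of all genes, 2.48% higher and 2.70% lower. At PWK 28 it had 4 higher and 1 lower, beside 22.2% of all genes called, with 12.2% called higher and 1845 of 18387 genes called lower. With all 64 libraries in 1 fit the cortex had 5 members called at PWK 14 and 9 at PWK 28. That fit uses 1 estimate of the spread per gene for all 16 groups, although the late KI groups spread more widely than the WT groups. In cortex the 10 genes had a median log2 difference of 0.55 at PWK 14 and of 0.92 at PWK 28, whereas in hippocampus it was 1.39 at the earlier and 0.61 at the later age. The median over all genes lay between -0.003 and 0.006. Libraries of KI and WT did not overlap for 6 and 4 members in cortex at PWK 14 and 28, beside 14.2% and 25.8% of all genes, and for 8 and 7 members in hippocampus, beside 23.8% and 21.5%. Nptx2 was called higher in all 4 comparisons, Arc and Homer1 in none.

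Set in order over all 16 groups, the mean level was highest in KI cortex at PWK 28 for Bdnf, Nptx2, Vgf, Scg2, Ptgs2 and Rgs2. WT cortex at PWK 28 was the highest group for Arc, Homer1 and Pcsk1, and KI hippocampus at PWK 14 for Inhba. The highest group mean exceeded the lowest 42.3-fold for Ptgs2, 22.8-fold for Arc, 17.2-fold for Nptx2, 10.7-fold for Bdnf and 10.6-fold for Inhba, and between 3.16-fold for Homer1 and 5.0-fold for Scg2 for the other members. Most neighbours in these orders could not be separated: the libraries of adjacent groups overlapped in 11 of 15 steps for Bdnf and Ptgs2 and in 13 to 15 of 15 for the other 8 genes.

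**Figure D1:**
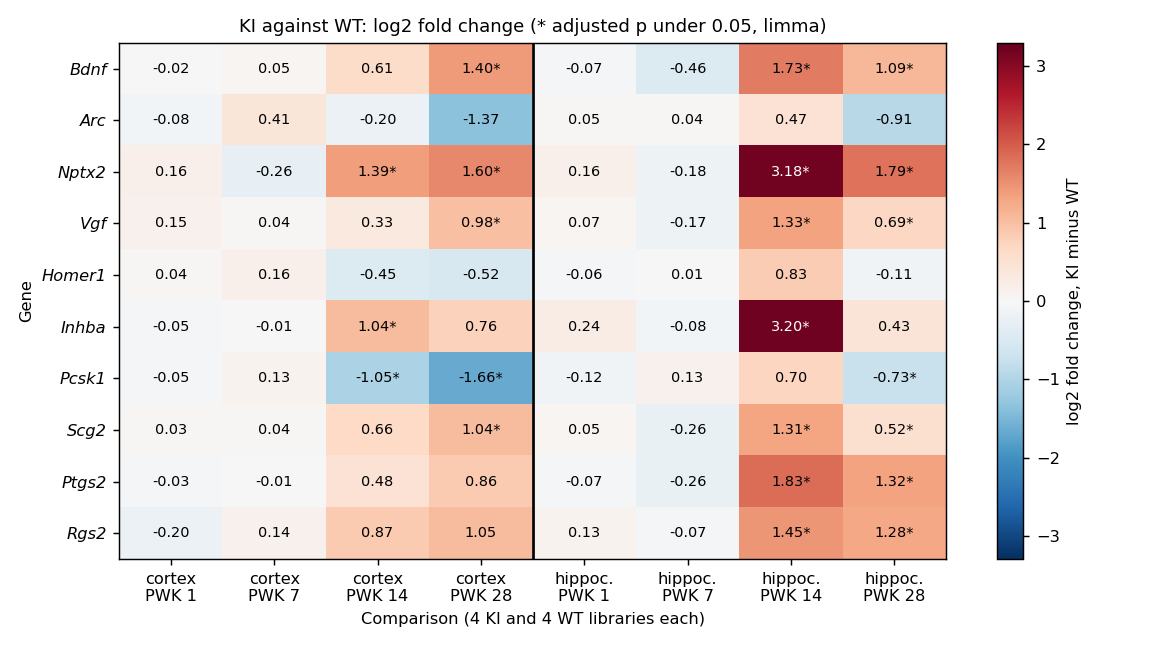
Log2 fold change of KI against WT for each of the 10 genes (rows) in each region and postnatal week (columns), 4 KI and 4 WT libraries per comparison, with an asterisk where the limma adjusted p was under 0.05. Values at PWK 1 and 7 lie between -0.46 and 0.41 with no call, and hippocampus at PWK 14 reaches 3.20 for Inhba and 3.18 for Nptx2.

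Among the secreted factors, Bdnf (chr2:109674700-109727007, plus strand) encodes brain-derived neurotrophic factor, the ligand of the receptor TrkB. In hippocampus at PWK 14 its KI libraries held 2057, 2812, 6049 and 3081 normalized counts against 931, 886, 885 and 1228 in WT. Every KI library was above every WT library, and replicate 3 was far above the other KI libraries. The group means were 3499.8 ± 1754 and 982 ± 165 (SD, n = 4), which is 3.56-fold, and the log2 difference was 1.73 ± 0.28 (SE, adjusted p = 0.00428). At PWK 28 the hippocampus held 3751, 2293, 3110.3 and 1971 in KI and 1316, 1341, 1074 and 1336 in WT, again without overlap, with a log2 difference of 1.09 ± 0.17 (adjusted p = 0.0017). The PWK 28 cortex held 6395, 1552, 5505 and 2069.9 in KI against 1206, 1109, 1425 and 1231 in WT, so that replicates 1 and 3 were far above WT and replicates 2 and 4 only a little above it. The difference was 1.40 ± 0.39 (adjusted p = 0.027). That call was lost without KI replicate 1, without KI replicate 3 or without any 1 of the WT libraries, with adjusted p from 0.00278 to 0.0725 over the 8 fits that leave out a library. At PWK 14 in cortex the KI libraries, at 1361, 731, 738 and 1008, were all above those of WT, at 716, 729.9, 567 and 454, but by 0.61 on the log2 scale the test was not passed (adjusted p = 0.115).

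Vgf (chr5:137026392-137033351, plus strand), whose product is cut into secreted neuropeptides, was called in 3 of the 4 comparisons. In hippocampus its KI libraries held 10329.9, 6445, 10031 and 5729.8 normalized counts at PWK 14 against 2919, 3402, 3012 and 3243 in WT. Replicates 1 and 3 were highest, and the lowest KI library still exceeded the highest WT library. The log2 difference was 1.33 ± 0.18 (SE, adjusted p = 0.00239) at PWK 14 and 0.69 ± 0.07 (adjusted p = 0.000139) at PWK 28, where KI held 5289, 4563, 5085 and 4249.7. The KI libraries of that last group lay close together and none reached the WT range of 2773 to 3144. Cortical values at PWK 28 were 14598, 6364, 12149 and 10473 in KI against 5187, 4891, 5505 and 5515 in WT, a 2.07-fold difference of the means without overlap (0.98 ± 0.20, adjusted p = 0.00662). At PWK 14 in cortex KI replicate 1 stood alone at 7781, with the other 3 between 3788 and 4119, near the WT libraries, and Vgf did not pass the test (0.33, adjusted p = 0.368).

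Scg2 (chr1:79434669-79440120, minus strand) encodes secretogranin II, a granin of dense-core vesicles and the precursor of secretoneurin. KI hippocampus at PWK 14 held 14145, 9349, 14175 and 7225 normalized counts and WT 4479, 4203, 4126 and 4596. Replicates 1 and 3 were again the highest and no library overlapped, with a log2 difference of 1.31 ± 0.20 (SE, adjusted p = 0.00329). Later, at PWK 28, the hippocampus held 8526, 7072, 7323 and 7677 in KI and 5539.5, 5430.3, 4677 and 5627 in WT, a tighter and smaller difference of 0.52 ± 0.07 (adjusted p = 0.000851). Across cortex at PWK 28 KI ranged from 8012 to 24678 and WT from 5254 to 9151. The groups overlapped there, because KI replicate 2 lay within the WT range. Scg2 was called at 1.04 ± 0.29 (adjusted p = 0.0286), a call that was lost without KI replicate 1, KI replicate 3, WT replicate 1 or WT replicate 2 (adjusted p from 0.00271 to 0.0816). At PWK 14 all cortical KI libraries, 9498, 5236, 4565 and 4236, were above those of WT, 3229.5 to 3789.6, with an adjusted p of 0.0911, and Scg2 was called without KI replicate 1 alone, at 0.0172.

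Inhba (chr13:16011851-16031621, plus strand) encodes the beta A subunit of activin A, a secreted factor of the TGF-beta family. Its difference in hippocampus at PWK 14 was, with that of Nptx2, among the widest: the KI libraries held 2495, 1826, 3467 and 1735 normalized counts and the WT libraries 246, 245, 198 and 317. Even the lowest KI library was far above the highest WT library. The means of 2381 ± 799 and 252 ± 49.0 (SD, n = 4) are 9.46-fold apart, and the log2 difference was 3.20 ± 0.22 (SE, adjusted p = 0.000129). At PWK 28 the WT hippocampus had itself risen to 654, 564, 500.4 and 577, and KI held 1212, 857, 1196 and 286. The KI values spread to both sides of WT because replicate 4 was below it, and Inhba was not called (0.43 ± 0.37, adjusted p = 0.471), while without KI replicate 4 it was called with an adjusted p of 0.00168. The cortex at PWK 14 held 1267, 858, 493 and 530.4 in KI against 309.6, 396, 333 and 385 in WT, without overlap, and the difference of 1.04 ± 0.25 passed the test (adjusted p = 0.0386). That call was lost without KI replicate 2, without any 1 of the 4 WT libraries and with no filter on low values (adjusted p from 0.018 to 0.116 over the 8 fits that leave out a library). At PWK 28 in cortex the KI range of 808 to 4126 overlapped the WT range of 767 to 1231 and the difference was not called (0.76, adjusted p = 0.219).

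Pcsk1 (chr13:75089826-75134861, plus strand) encodes the prohormone convertase PC1/3, which cuts precursors such as the granins and proneuropeptides inside dense-core vesicles, and in cortex it was lower in KI. At PWK 14 in cortex the KI libraries held 931, 833, 1234 and 1205 normalized counts and the WT libraries 2345, 2446, 2074 and 1775. All KI libraries were below all WT libraries, including replicate 1, which was the highest for most other members. The log2 difference was -1.05 ± 0.14 (SE, adjusted p = 0.00308). At PWK 28 in cortex KI held 1307, 1182, 994 and 787 and WT 3146, 2948, 3813 and 3426, so that KI was at 0.32 of the WT mean and the groups were far apart (-1.66 ± 0.14, adjusted p = 0.000129). Both cortical calls held in every fit that left out a library. Pcsk1 in hippocampus at PWK 28 was also lower, at 1165, 768, 1175 and 626 in KI against 1587, 1442, 1337 and 1623 in WT, without overlap (-0.73 ± 0.18, adjusted p = 0.0186). This call was lost without WT replicate 1 or WT replicate 4, with an adjusted p of up to 0.0555. By contrast, hippocampal KI libraries at PWK 14 held 829, 980.5, 2204 and 1610.0 and WT 881, 816, 986 and 580.5, with replicates 3 and 4 above WT and replicates 1 and 2 within its range, and the difference of 0.70 ± 0.29 was not called (adjusted p = 0.134). Without KI replicate 1 alone it was called higher, with an adjusted p of 0.0353.

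**Figure D2:**
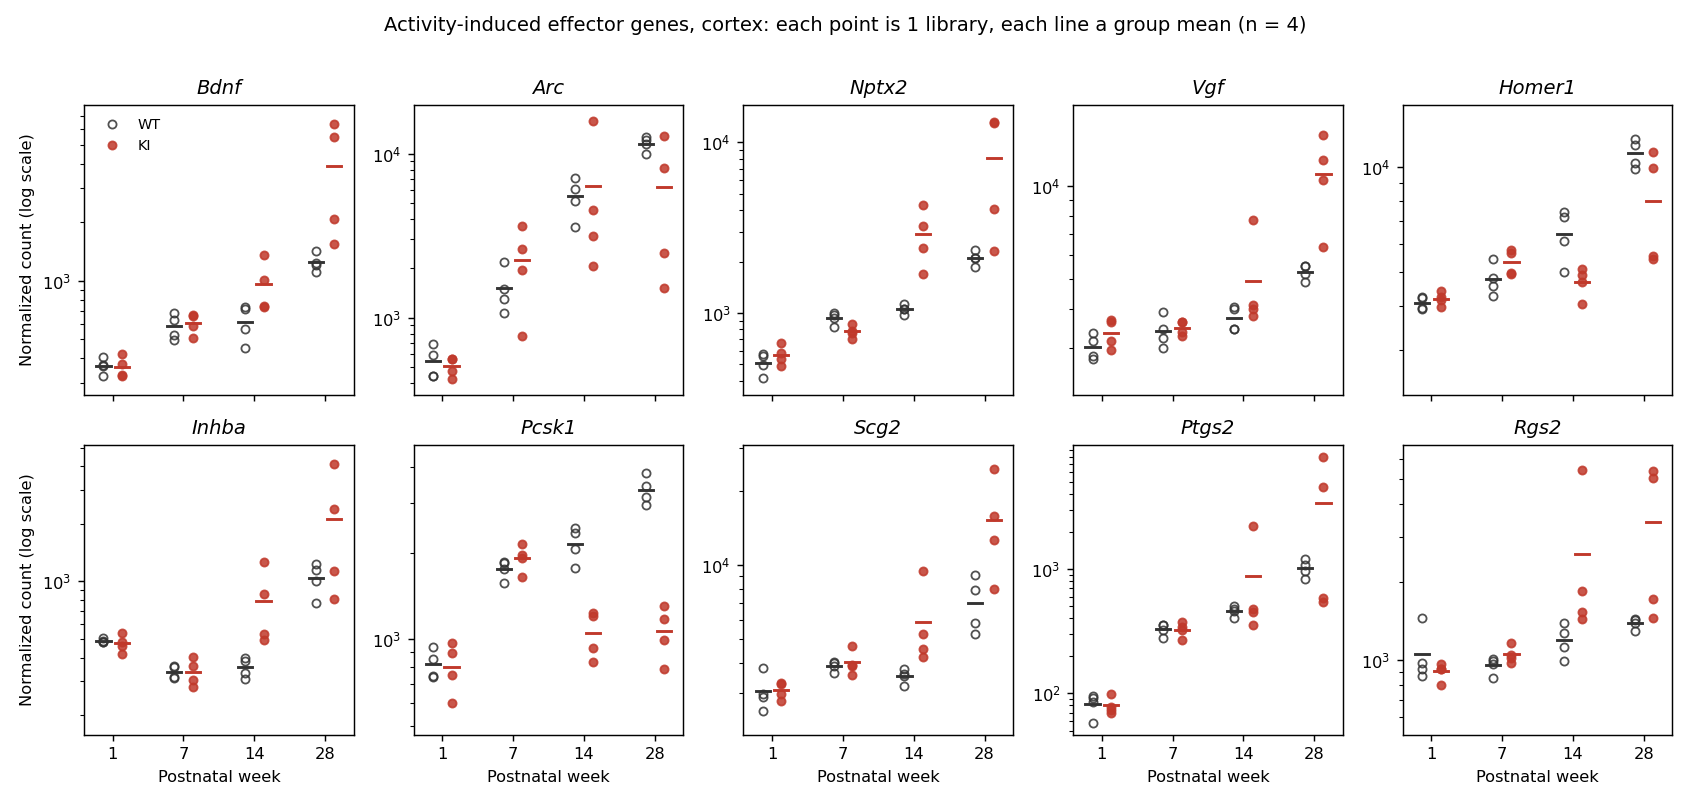
Normalized count (log axis) of the 10 genes in each frontal cortex library by postnatal week, WT open and KI filled, with lines at the group means (n = 4). At PWK 28 the KI points of Bdnf, Nptx2, Ptgs2 and Rgs2 fall into a high and a low pair, and Pcsk1 is the gene whose KI points all lie below WT at PWK 14 and 28.

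At the synapse, Nptx2 (chr5:144545902-144557478, plus strand) encodes neuronal pentraxin 2, a secreted protein that gathers AMPA receptors on the dendrites of inhibitory neurons. It was called higher in both regions at both late ages. Hippocampal KI libraries at PWK 14 held 3153, 2837, 8970.4 and 4223 normalized counts and WT 468, 477, 434 and 512. The KI means of 4796 ± 2846 and WT means of 473 ± 31.8 (SD, n = 4) are 10.1-fold apart, with replicate 3 the highest (3.18 ± 0.30, SE, adjusted p = 0.000623). Hippocampus at PWK 28 held 3119, 2309, 4077 and 1103 in KI and 673, 679.9, 641 and 777 in WT, still without overlap (1.79 ± 0.30, adjusted p = 0.0029). Values in the PWK 14 cortex were 4320.1, 1703, 2407 and 3247 in KI and 1056, 1129, 967 and 1050.0 in WT, again without overlap (1.39 ± 0.22, adjusted p = 0.00673). By PWK 28 the cortical KI libraries separated into replicates 1 and 3, at 12938 and 13227, and replicates 2 and 4, at 4074 and 2299, against 2106, 1867, 2328 and 2092 in WT. Replicate 4 lay within the WT range. The difference of 1.6 ± 0.48 (adjusted p = 0.0357) was lost as a call without KI replicate 1, KI replicate 3 or any 1 WT library (adjusted p from 0.00446 to 0.0903).

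Arc (chr15:74669083-74672570, minus strand), whose protein drives the removal of AMPA receptors from the postsynaptic membrane, scattered widely between KI libraries and was called in no comparison with WT. In cortex at PWK 28 KI held 12795, 2486, 8132 and 1507 normalized counts and WT 11397, 12045, 12652 and 9900.0. Replicate 1 lay just above the WT range, replicate 3 below it, and replicates 2 and 4 far below it. The log2 difference of -1.37 ± 0.54 (SE) had an adjusted p of 0.0995, and Arc was called lower when KI replicate 1 was left out, with an adjusted p of 0.0169. The same order of replicates was seen in hippocampus at PWK 28, with 7607, 1846, 4873 and 897 in KI against 4599, 6499, 5009 and 5184 in WT (-0.91 ± 0.52, adjusted p = 0.262). The KI values at PWK 14, 15797, 2069, 3133 and 4508 for cortex and 7959, 2062, 8665 and 3414 for hippocampus, stood against WT ranges of 3588 to 7122 and 2293 to 4814. Libraries above and below the WT range stood side by side in both regions, and the differences were -0.20 ± 0.49 and 0.47 ± 0.44 (adjusted p = 0.867 and 0.503).

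Homer1 (chr13:93299635-93405129, plus strand) encodes a postsynaptic scaffold that ties group I metabotropic glutamate receptors to Shank proteins and inositol trisphosphate receptors, together with a short form that breaks these links. Its differences between KI and WT had opposite signs in the 2 regions at PWK 14, and none passed the test. Cortical KI libraries at PWK 14 held 4674, 4064, 4901 and 5089 normalized counts and WT 7171, 7441, 6129.9 and 5002. Only WT replicate 4 fell among the KI libraries (-0.45 ± 0.12, SE, adjusted p = 0.0539), and without it Homer1 was called lower at 0.0186. The hippocampal ones held 3807, 4995, 11396 and 6434 and WT 3627, 3158, 3682 and 3333, with all KI libraries higher and replicate 3 far above the rest (0.83 ± 0.27, adjusted p = 0.0694). Without KI replicate 1 this became a call, with an adjusted p of 0.0113. At PWK 28 cortical replicates 1 and 3 of KI, at 10999.8 and 9937, were within the WT range of 9878 to 11984 and replicates 2 and 4, at 5454 and 5564, were far below it (-0.52 ± 0.21, adjusted p = 0.106). Without KI replicate 1 that difference was called, at 0.0284. Hippocampal libraries at PWK 28 ranged from 2787 to 4754 in KI and from 3569 to 4311 in WT and overlapped (-0.11 ± 0.14, adjusted p = 0.631).

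Of the enzymes and regulators of signalling, Ptgs2 (chr1:150100031-150108227, plus strand) encodes cyclooxygenase 2, the inducible enzyme of prostaglandin synthesis. At PWK 14 in hippocampus KI held 2657, 1754, 5133 and 1494 normalized counts and WT 657, 615, 646 and 852. No library overlapped, and the means differed 3.98-fold (1.83 ± 0.33, SE, adjusted p = 0.00691). At PWK 28 the hippocampus held 4635, 1429, 3301 and 949 in KI and 935, 941, 801 and 759.6 in WT, where KI replicate 4 only just exceeded the WT libraries. The difference of 1.32 ± 0.39 (adjusted p = 0.0427) was lost as a call without KI replicate 1, KI replicate 3 or any 1 WT library and with no filter on low values (adjusted p from 0.00538 to 0.107 over the 8 fits that leave out a library). In cortex the KI libraries stood far apart: 7909, 580.3, 4543 and 544 at PWK 28 and 2200.4, 357, 449 and 474 at PWK 14, against WT ranges of 836 to 1201 and 400.2 to 499.6. At PWK 28 replicates 1 and 3 were above WT and replicates 2 and 4 below it, and at PWK 14 replicate 1 alone was above it. Neither cortical difference was called (0.86 ± 0.76 and 0.48 ± 0.45, adjusted p = 0.45 and 0.607).

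Rgs2 (chr1:143999338-144004161, minus strand) encodes a regulator of G protein signalling that shortens signals through Gq. In hippocampus KI held 1972, 1807, 3404 and 1809 normalized counts at PWK 14 and 3150.0, 1689.7, 2576 and 1287 at PWK 28, against WT ranges of 655 to 932 and 766 to 918. No KI library entered the WT range at either age, and the differences were 1.45 ± 0.20 (SE, adjusted p = 0.00239) and 1.28 ± 0.22 (adjusted p = 0.00325). In cortex KI held 5421, 1444, 1532 and 1856 at PWK 14 and 5403, 1720.1, 5072 and 1449 at PWK 28, against WT ranges of 989 to 1391 and 1300.4 to 1437. All KI libraries were above WT there too, but with replicate 1 at PWK 14, and replicates 1 and 3 at PWK 28, several times higher than the rest, the test was not passed (0.87 and 1.05, adjusted p = 0.174 and 0.0731). At PWK 28 Rgs2 was called higher without KI replicate 2 or without KI replicate 4, with an adjusted p as low as 0.0203.

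**Figure D3:**
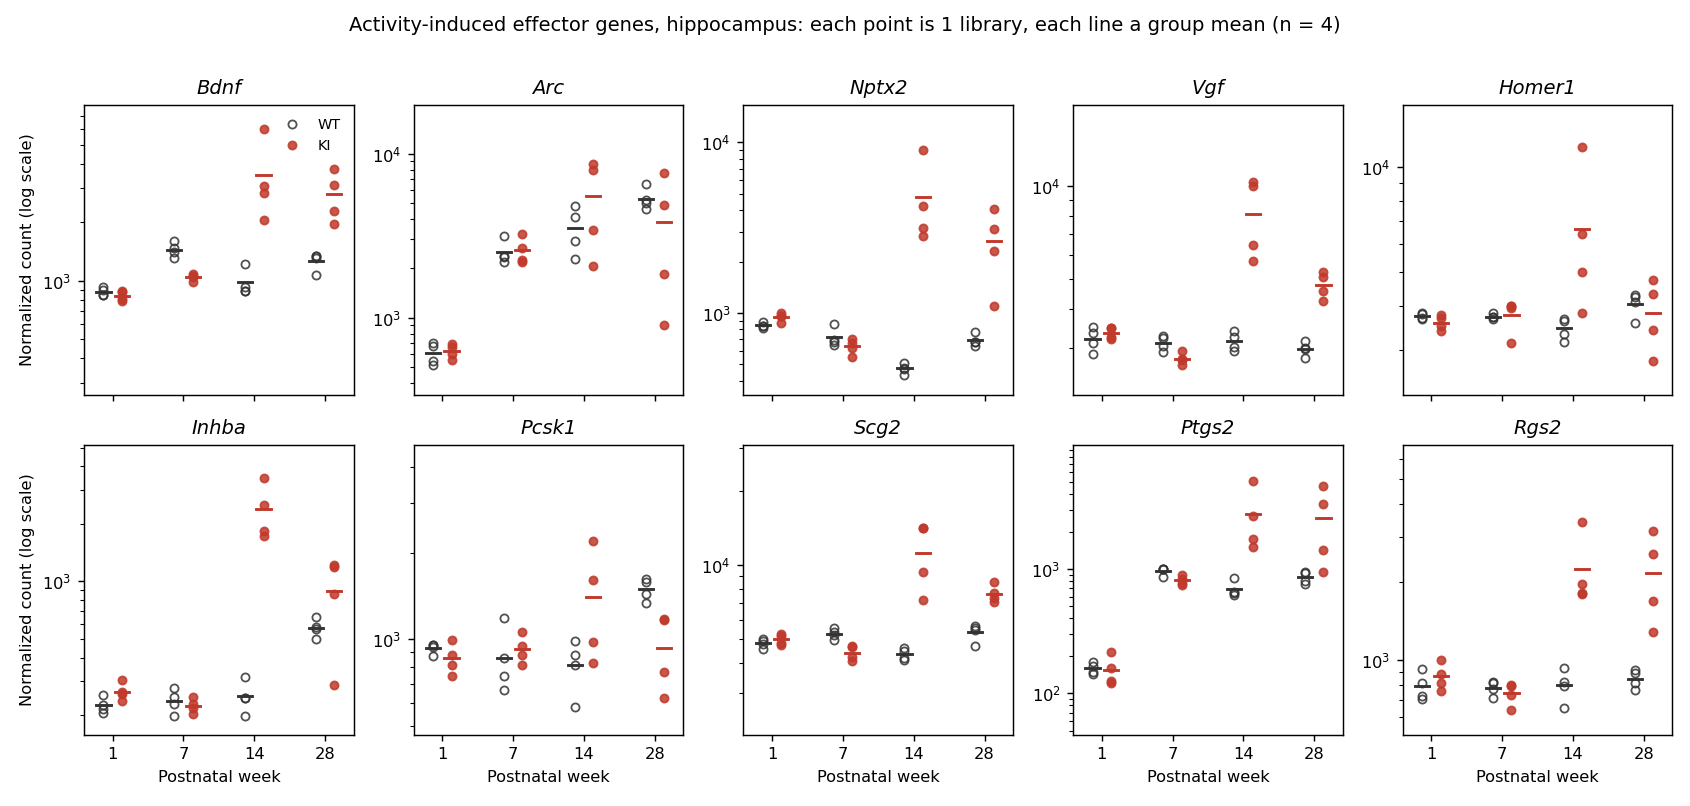
Normalized count (log axis) of the 10 genes in each hippocampal library by postnatal week, WT open and KI filled, with lines at the group means (n = 4). KI and WT points do not overlap for 8 genes at PWK 14 and 7 genes at PWK 28, and Arc has KI points on both sides of the WT points at both ages.

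Whether the KI difference itself varied with region was tested at both late ages. At PWK 14 it was higher in hippocampus than in cortex for Inhba by 2.16 ± 0.37 (SE, adjusted p = 0.00654), for Nptx2 by 1.79 ± 0.41 (adjusted p = 0.0314), for Pcsk1 by 1.75 ± 0.35 (adjusted p = 0.0151) and for Homer1 by 1.27 ± 0.32 (adjusted p = 0.0444), all on the log2 scale. These 4 of 10 stand beside 2.85% of all genes called, and 1.64% called in that direction. The calls of Inhba and Pcsk1 held without any 1 library, while that of Nptx2 was lost in 9 and that of Homer1 in 12 of the 16 fits that leave out a library (adjusted p of up to 0.0634 and 0.0924), among them those without WT replicate 1, 2 or 3 of either region and KI replicate 2 or 3 of cortex. Without KI replicate 1 of cortex, which was the high library there, Vgf, Scg2, Ptgs2 and Rgs2 were called too and Homer1 was not, 7 of 10 in all. At PWK 28 Pcsk1 alone was called, its loss being smaller in hippocampus by 0.93 ± 0.25 (adjusted p = 0.0451), beside 4.57% of all genes. That call was lost without any 1 WT library, without KI replicate 3 or 4 of cortex, without KI replicate 1 or 3 of hippocampus and with no filter on low values (adjusted p from 0.0117 to 0.09).

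Between ages, the KI difference grew from PWK 7 to PWK 14 in hippocampus for the 7 genes called at PWK 14, from 1.5 ± 0.20 (SE) for Vgf to 3.36 ± 0.34 for Nptx2, with adjusted p between 4.65e-06 for Inhba and 0.00197 for Ptgs2, beside 10.3% of all genes called. In cortex it grew for Nptx2 (1.65 ± 0.26, adjusted p = 0.00207) and moved down for Pcsk1 (-1.17 ± 0.17, adjusted p = 0.00148) and Homer1 (-0.61 ± 0.15, adjusted p = 0.035), beside 3.18% of all genes, where the Homer1 call was lost without KI replicate 1 or 4 or WT replicate 2, 3 or 4 of PWK 7, or without KI replicate 2 or WT replicate 1, 2 or 3 of PWK 14 (adjusted p of up to 0.0804). From PWK 14 to PWK 28 no gene of the whole table, 0.00%, was called by limma in either region, with 15.1% of genes in cortex and 12.4% in hippocampus at an unadjusted p under 0.05. The largest change between these ages among the members was that of Inhba in hippocampus, -2.77 ± 0.49 (adjusted p = 0.101). It was called without KI replicate 4 of PWK 14 or without KI replicate 1 or 4 of PWK 28, with an adjusted p as low as 0.0170. The contrasts of one region share their PWK 14 libraries.

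At PWK 14 and 28 the KI libraries differed among themselves more than the WT libraries. Taken over the 10 genes, the median SD of log2 values was 1.01 in KI against 0.152 in WT for cortex at PWK 28, and 0.652 against 0.211 for hippocampus at PWK 14. For cortex at PWK 14 it was 0.553 against 0.188, and for hippocampus at PWK 28 0.517 against 0.127. KI was the wider group for 9 and 10 of the 10 genes in cortex at PWK 14 and 28 and for 10 and 9 in hippocampus. Over all genes KI was wider in 59.7%, 68.1%, 70.0% and 62.7% of genes in the same order, with a median SD of at most 0.217. At PWK 1 and 7 the KI median for the members stayed between 0.117 and 0.165.

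Within a group the 10 genes tended to be high in the same libraries. KI replicate 1 of cortex at PWK 14 was the highest KI library for 8 of the 10 genes, and in hippocampus at PWK 14 KI replicate 3 was the highest for 9. At PWK 28 KI replicate 1 was the highest for 9 genes in cortex and for 8 in hippocampus, and replicates 1 and 3 were the 2 highest for most. KI replicate 4 was the lowest for 6 genes in cortex and for 9 in hippocampus at that age. Against the WT mean, the median difference of the 10 genes in cortex at PWK 28 was 1.90, 0.19, 1.22 and -0.14 on the log2 scale in KI replicates 1 to 4. The labels do not say that equal numbers in the 2 regions mark the same mouse.

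**Figure D4:**
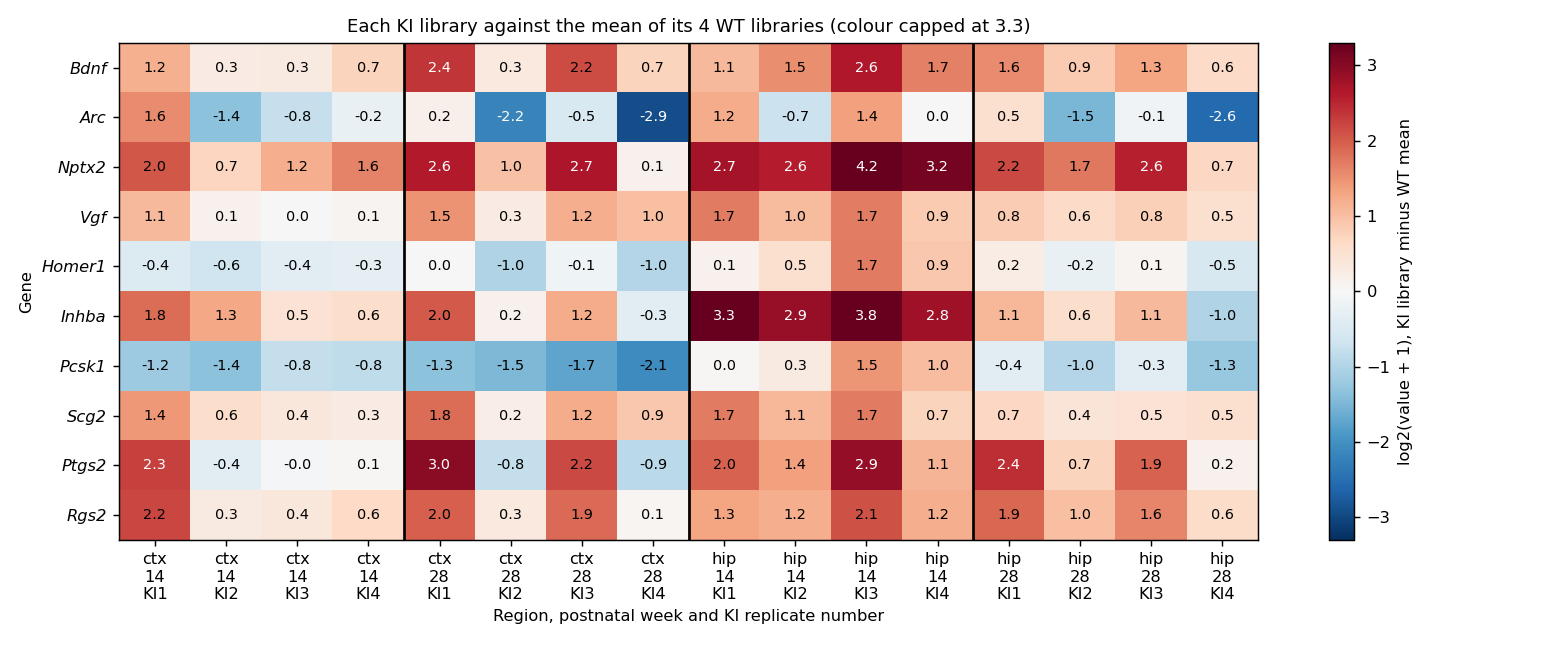
Difference of each KI library from the mean of its 4 WT libraries on the log2(value + 1) scale, for the 10 genes (rows) at PWK 14 and 28 in cortex (ctx) and hippocampus (hip). In cortex at PWK 28 Arc runs from 0.16 in KI1 to -2.92 in KI4 and Ptgs2 from 2.97 to -0.89, whereas Pcsk1 is below WT in all 8 late cortical KI libraries.

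Once the group means were removed, all 45 pairs of members had a correlation above 0 over the 32 libraries of a region, with a median r of 0.73 in cortex and 0.62 in hippocampus. Averaged over both regions, the highest r joined Bdnf with Homer1 (0.84 and 0.88), and that of Arc with Ptgs2 was 0.82 and 0.85. In cortex Pcsk1 had the loosest ties, with r of 0.18 to Scg2 and 0.12 to Vgf. In hippocampus its r was low to the same genes, at 0.06 and 0.12, but 0.82 to Homer1 and 0.75 to Rgs2. Among 12819 genes, those most like Arc were Junb, with r of 0.96 in cortex and 0.94 in hippocampus, and then Nr4a1 and Fos. Those most like Ptgs2 were Egr4, with r of 0.95 in cortex and 0.90 in hippocampus, Fosb and Egr1, and Rgs2 had Fosb (0.93 in cortex and 0.84 in hippocampus), Arl4d and Egr4. Nptx2 was closest to Egr3 (0.88 in cortex and 0.91 in hippocampus), Grasp and Rara, and Inhba to Dnajb5 (0.81 in cortex and 0.82 in hippocampus), Rara and Dusp5. Bdnf was closest to Etv3 (0.81 in cortex and 0.89 in hippocampus), Dnajb5 and Tpm1, and Homer1 to Etv3 (0.78 in cortex and 0.93 in hippocampus), Kcnv1 and Slc30a1. The granin-like members had other neighbours: Scg2 had Npy (0.78 in cortex and 0.84 in hippocampus), Chga and Rab7, and Vgf had Ldha (0.79 in cortex and 0.90 in hippocampus), Cfl1 and Chga. The genes nearest to Pcsk1 were Ranbp2 (0.74 in cortex and 0.73 in hippocampus), Umad1 and Kcnv1. These are descriptions over libraries that share their tissue, animals and normalization. No r between genes outside the members was computed, so the ties among the members are not set against those of other genes. The libraries did not weigh equally, because the late KI groups spread most widely around their means. As given above, the median SD of the members in cortex at PWK 28 was 1.01 in KI against 0.152 in WT. In hippocampus at PWK 14 it was 0.652 against 0.211. The r values may therefore mostly describe the late KI libraries, and r without them was not tested.

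The genes around each member in its pathway were taken as lists, whose counts stand beside the shares of all genes called. For PWK 14 these were 5.18% (cortex) and 15.6% (hippocampus), and for PWK 28 22.2% and 15.8%. Several of the lists had shares near or below these. Of 16 immediate early transcription factors, 2 were called higher and 3 lower in the PWK 14 cortex, and 1 higher and 4 lower in the PWK 28 cortex. The hippocampus had 3 higher and 1 lower at PWK 14 and 1 of each at PWK 28. Jun rose in cortex at PWK 28 (log2 difference 1.40, adjusted p = 0.000292) and in hippocampus at PWK 28 (0.46, adjusted p = 0.00218), and Atf3 rose in hippocampus at PWK 14 (2.46, adjusted p = 0.00495). Nr4a3 fell in cortex at PWK 28 (-1.75, adjusted p = 0.005), and Nr4a2 in hippocampus at PWK 14 (-0.98, adjusted p = 0.0052). Fosl2 fell in cortex at PWK 14 (-1.19, adjusted p = 0.0132) and rose in hippocampus at that age (0.92, adjusted p = 0.00747). Of 18 other activity-induced effectors, 5 were called higher and 1 lower in hippocampus at PWK 14, and 2 higher and 5 lower in cortex at PWK 28. Rasd1, a Ras-like G protein, fell in both regions at PWK 28 (-1.44 and -1.22, adjusted p = 0.000593 and 0.000397), and Pim1, a kinase, rose in hippocampus at PWK 14 (1.57, adjusted p = 0.00115).

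Of 12 further genes of granins, prohormone processing and dense-core vesicles, 4 were called higher and 1 lower in cortex at PWK 28 and 5 higher and 1 lower in hippocampus at PWK 28. At PWK 14 there were 2 higher and 1 lower in cortex, and 2 higher and 3 lower in hippocampus. Chga, chromogranin A, was higher in every late comparison, from 0.77 (adjusted p = 5.56e-05) in hippocampus at PWK 28 to 1.74 (adjusted p = 0.000434) in cortex at PWK 28. There its KI mean was 11632 ± 3646 and its WT mean 3368 ± 349.5 (SD, n = 4). In the same cortex Chgb rose (0.64, adjusted p = 0.000378), and Cadps2, a factor for vesicle release, fell (-0.99, adjusted p = 0.00771). Scg3 (0.55, adjusted p = 0.000426) and Cpe, carboxypeptidase E (0.28, adjusted p = 0.00289), rose in hippocampus at PWK 28.

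Around Homer1, the list of 9 genes of the Homer and group I metabotropic receptor complex had no member called higher at either late age. Called lower were 4 genes in cortex at PWK 14 and 3 at the later age, with 3 and then 4 in hippocampus. Homer2 was lower in all 4 comparisons, down to -0.94 (adjusted p = 0.000241) in cortex at PWK 28, where KI held 1493, 1986, 1732 and 1532 normalized counts and WT 3072, 2969, 3371 and 3477, with no overlap. Itpr1, an inositol trisphosphate receptor, fell in hippocampus at PWK 28 (-0.60, adjusted p = 0.000119) and in cortex at PWK 28 (-0.56, adjusted p = 0.00598). Shank1 fell in cortex (-0.47, adjusted p = 0.000972) and hippocampus (-0.27, adjusted p = 0.00416) at that age. Around Nptx2, the list of 6 pentraxins and AMPA receptor subunits had 2 called higher and 2 lower in cortex at PWK 28. They included Nptx1 (0.75, adjusted p = 0.000517) and the pentraxin receptor Nptxr (0.35, adjusted p = 0.00269), which were higher, and the subunit Gria3 (-0.42, adjusted p = 0.0015), which was lower. Of 9 partners of Arc at the spine and endosome, at most 1 was called in either direction in any late comparison.

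Of 13 further genes of activin signalling, 3 were called higher and 3 lower in hippocampus at PWK 14 and 2 and 3 at PWK 28. Acvr1c, a type I receptor, rose in hippocampus at PWK 28 (1.61, adjusted p = 1.25e-05) while the type II receptor Acvr2b fell (-0.85, adjusted p = 0.00665). At PWK 28 in cortex the other activin subunit gene Inhbb (-1.32, adjusted p = 0.00395) and Smad3 (-1.35, adjusted p = 0.00297) fell. Of 9 receptors and processing factors for BDNF, 3 were higher and 5 lower in cortex at PWK 28, with Ntrk2, the gene of TrkB, lower (-0.32, adjusted p = 0.00339) and Sorcs2, a co-receptor, higher (0.85, adjusted p = 0.000178). In hippocampus at PWK 14, 4 were higher and 2 lower, and Plat, tissue plasminogen activator, rose (0.71, adjusted p = 0.00162).

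Of 12 further genes of prostaglandin synthesis and reception, 2 were called higher in each late hippocampal comparison and none lower. In cortex 2 were called higher and 0 lower at PWK 14, and 3 higher and 2 lower at PWK 28. Ptgs1, the constitutive cyclooxygenase, was called higher in all 4 late comparisons, up to 1.64 (adjusted p = 0.00411) in hippocampus at PWK 14. Its cortical libraries at PWK 28 held 2331, 1352, 1782 and 1615 normalized counts in KI against 572, 622, 597 and 579 in WT, without the split into high and low pairs seen for Ptgs2. Of 10 RGS proteins and partners of Gq, 3 were higher and 1 lower in hippocampus at PWK 14 and 2 and 1 at PWK 28, where Rgs4 rose (0.95, adjusted p = 0.000126). Of 12 regulators of activity-induced transcription around CREB and SRF, 2 were higher and 5 lower in cortex at PWK 28, among them Camk4 (-0.45, adjusted p = 0.000601), a kinase that activates CREB, which fell.

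Markers of other cells moved in the same comparisons, and in bulk tissue fewer cells of a type and less RNA per cell cannot be told apart. Their counts stand beside the shares of all genes called. In cortex these were 2.48% higher and 2.70% lower at PWK 14. At PWK 28 they were 12.2% higher, with 1845 of 18387 genes lower. In hippocampus they were 7.64% higher at PWK 14, with 1463 of 18405 genes lower. At PWK 28 they were 8.92% higher and 6.91% lower there. A list with 1 call is not set apart from these shares. Of 5 markers of inhibitory neurons, 4 were called higher in cortex at PWK 14 and again at PWK 28, and their summed level lay between 28790 and 43943 in KI against 19725 and 26079 in WT at PWK 28. In hippocampus 1 and 3 of them were called higher. Of 5 astrocyte markers, 2 and 3 were called higher in hippocampus at PWK 14 and 28, where the sum lay between 88467 and 199576 in KI against 54454 to 61183 in WT at PWK 14. The microglial sum at that age and region was 6616 to 18175 in KI and 6118 to 7609 in WT, with no marker called, and at PWK 28 4 of 5 were called higher. Some markers of the dissected regions were called too. Of 5 cortical markers 2, Fezf2 and Lamp5, were called lower in KI cortex at both late ages, and their sum did not overlap, at 11211 to 13971 in KI against 15799 to 17607 in WT at PWK 14 and 7750 to 11234 against 13756 to 14005 at PWK 28. In hippocampus 3 and 1 of them were called lower at PWK 14 and 28. The sum of 5 striatal markers in cortex was 4653 to 14198 in KI against 2812 to 3754 in WT at PWK 14 and 8477 to 10110.0 against 3514 to 6897 at PWK 28, without overlap, with Ppp1r1b the marker called. General neuronal markers summed to 206518 to 218778 in KI and 167040.4 to 188922 in WT in cortex at PWK 28, where Slc17a7 was called higher. They summed to 122615 to 165568 in KI and 143186 to 153751 in WT in hippocampus at PWK 14. No marker of these lists was at 0 in any of these groups, and their part in the results above was not tested.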

How the data were processed

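RNA was sequenced from frontal cortex and hippocampus of both hemispheres, and the labels name a stranded mRNA kit (Illumina TruSeq) where the methods of the study name a total RNA kit. The authors quantified reads with Salmon, summed transcripts to genes with tximport and deposited DESeq2-normalized counts, that is, a depth-scaled signal per gene and library and not raw counts. The submitters' processing notes list Salmon 0.11.2, R 3.6.0 and DESeq2 1.19.11, with GRCm38 as the build, while the methods give another Salmon version. Since whole reads could not be recovered from these values, no count model was used.

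Values were tested as log2(value + 1) with limma 3.58.1 (trend on mean level) in R 4.3.3, among genes with a mean of at least 1 normalized count in the libraries compared, with Benjamini-Hochberg adjustment over all those genes and a threshold of 0.05. Each comparison of genotypes or of regions used its own 4 against 4 libraries. Those between WT ages used the 16 WT libraries of a region, with 1 estimate of the spread. Differences between effects used the 16 libraries of a single model. Of 18432 Ensembl IDs, 18420 matched a GENCODE vM21 symbol, and every column matched a labelled sample. The alternatives were a pseudocount of 8, a mean of at least 50, no filter, scaling to equal totals, all 64 libraries in 1 fit, the replicate number as a block, and leaving out each library. Likeness was Pearson's r of log2 values with group means removed, among genes with a mean of at least 100. All 10 members were named, and from each list of related genes those with the smallest adjusted p, up to 3 per region. The members, lists and tests were chosen with earlier results of these data known. The fit was tested on simulated data with known changes and the same dispersion in both genotypes. The wider spread of the KI libraries at the late ages was not simulated. Tables and plots used Python 3.11.15, pandas 2.3.3, numpy 2.4.6 and matplotlib 3.10.9. Each library was treated as 1 replicate of its group, as the labels number them.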

Additional observations from a re-analysis of the deposited data

Results flagged for a closer look

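In 9 of 160 groups of 4 libraries of the 10 genes, a single library lay far from the other 3 by Dixon's criterion, which chance alone meets in about 5% of groups. Of these, 3 were the highest KI library of cortex at PWK 14, with 7781 normalized counts for Vgf, 2200.4 for Ptgs2 and 5421 for Rgs2, and in each case this was replicate 1. The highest KI library of hippocampus at PWK 14 stood apart for Rgs2, at 3404, and was replicate 3. The lowest KI library of hippocampus at PWK 7 stood apart for Homer1, at 3127. Among WT libraries, the highest for Bdnf in hippocampus at PWK 14 (1228), the lowest for Bdnf in hippocampus at PWK 28 (1074), the highest for Inhba in cortex at PWK 1 (508) and the lowest for Ptgs2 in hippocampus at PWK 7 (863) stood apart from their groups.

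Other results drew attention because the difference between KI and WT itself differed between regions or ages by the limma test. At PWK 14 it was higher in hippocampus than in cortex by 1.27 for Homer1, 1.75 for Pcsk1, 2.16 for Inhba and 1.79 for Nptx2 on the log2 scale, and at PWK 28 by 0.93 for Pcsk1. From PWK 7 to PWK 14 in cortex it moved by -0.61 for Homer1, -1.17 for Pcsk1 and 1.65 for Nptx2. From PWK 7 to PWK 14 in hippocampus it moved by 1.52 for Rgs2, 2.09 for Ptgs2, 1.5 for Vgf, 3.28 for Inhba, 2.19 for Bdnf, 1.57 for Scg2 and 3.36 for Nptx2.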

How the results depend on the processing

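All 64 libraries in 1 fit share 1 estimate of the spread per gene over all 16 groups. The groups differed in spread: the median SD of the members in cortex at PWK 28 was 1.01 in KI against 0.152 in WT. With that fit the number of members called between KI and WT was 5 in place of 3 for cortex at PWK 14, and 9 in place of 5 at PWK 28. Between WT ages it went from 2 to 1 in cortex and from 4 to 0 in hippocampus for PWK 14 against 7, and from 7 to 2 in hippocampus for PWK 28 against 14. Between WT regions it went from 6 to 3 at PWK 1, from 9 to 3 at PWK 7 and from 10 to 4 at PWK 14, and the difference of the KI effect between PWK 28 and 14 in hippocampus went from 0 to 3. The difference of the KI effect between regions at PWK 28 was called for 1 member, for 0 with no filter and for 2 with the replicate number as a block. The labels do not tie equal replicate numbers to a mouse, so no pairing was assumed. Deviations from the group means had a mean r of 0.140 between regions for equal numbers and -0.046 for different numbers. For equal numbers r was over 0.1 in 17 of 32 pairs, and 19 of 32 libraries correlated best with their own number. This is at most a hint from the data that some numbers are shared. Among pairs of equal number that cannot be 1 mouse, r was over 0.1 in 10 of 32 of KI with WT. The same held in 10 of 48 pairs of WT libraries of 2 ages. Under the block, 6 members were called between KI and WT in cortex at PWK 28, and between regions 8 of WT at PWK 1 and 5 for the KI effect at PWK 14, with 5, 6 and 4 without it. Leaving out each library gave 2 to 4 members called between KI and WT in cortex at PWK 14, 2 to 6 at PWK 28, 0 to 1 in hippocampus at PWK 7, 7 to 9 at PWK 14 and 5 to 8 at PWK 28, and 0 to 0 in the other early comparisons. For WT ages it gave 6 to 8, 1 to 3 and 9 to 9 in cortex and 3 to 4, 4 to 5 and 5 to 8 in hippocampus, from the earliest step to the last. For WT regions it gave 5 to 7, 9 to 9, 8 to 10 and 7 to 9 from PWK 1 to 28. For the KI effect it gave 2 to 7 and 0 to 2 between regions at PWK 14 and 28, 2 to 4 and 7 to 8 between PWK 7 and 14 in cortex and hippocampus, and 0 to 0 and 0 to 3 between PWK 14 and 28. Over single members, 3632 of 3840 alternative values kept direction and side of the threshold, 145 lost and 63 gained the call, and 0 reversed a called direction. Of 102 calls, 61 held under all alternatives. The cause of these shifts was not tested. Depth before scaling is unknown, so a difference that was missed cannot be set against counting error.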

Other observations

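Some relatives of the 10 genes were called beyond those given in the main text. Ntf3, the gene of neurotrophin 3 and a relative of Bdnf, fell in hippocampus at PWK 28, from 176, 158, 129 and 118 normalized counts in WT to 79.8, 63.5, 76.6 and 53.4 in KI, with no overlap (-1.08 on the log2 scale, limma adjusted p = 0.00244). Sort1, the sortilin that carries precursors of neurotrophins, fell in hippocampus at PWK 14 (-0.50, adjusted p = 0.00415), and Sorcs3, of the same receptor family, rose in cortex at PWK 28 (0.63, adjusted p = 0.00227). In cortex at PWK 28 the prostaglandin E receptor Ptger3 rose (1.21, adjusted p = 0.000512) and the prostaglandin D synthase Ptgds fell (-0.79, adjusted p = 0.0186). Hpgd, the enzyme that inactivates prostaglandins, rose in hippocampus at PWK 28 (0.80, adjusted p = 0.00211). Among induced effectors outside the 10, Plk2 rose (0.31, adjusted p = 0.0192) and Per1 fell (-0.51, adjusted p = 0.0226) in cortex at PWK 28, and Syt4, a synaptotagmin of dense-core vesicles, fell in hippocampus at PWK 28 (-0.41, adjusted p = 0.000784).

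Of 4 choroid plexus markers none was called between KI and WT at PWK 14 or 28 by limma, while their summed level in WT hippocampus ranged between libraries from 1364 to 95036 normalized counts at PWK 7, from 1949 to 102535 at PWK 14 and from 36102 to 122823 at PWK 28. In WT cortex at PWK 28 it ranged from 313 to 21343. Of 5 oligodendrocyte markers 1 was called higher, in hippocampus at PWK 28, and of 4 endothelial markers 2 were called lower in cortex at PWK 14 and 1 at PWK 28. Of 5 striatal markers 1 was called higher in each late cortical and 2 in each late hippocampal comparison, and of 3 thalamic markers 1 was called lower in each late hippocampal comparison. The shares of all genes called in each direction, given above with the other markers, apply here too. A single call does not set a list apart from them.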
